A study of Mus musculus with 4 samples.

Results

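The GIMAP genes encode GTPases of the immunity-associated protein family, and 8 of them, Gimap1, Gimap3, Gimap4, Gimap5, Gimap6, Gimap7, Gimap8 and Gimap9, were followed here among the 13314 genes counted in single CD4 T cells. They were chosen by family membership, with earlier results of these data known, and all 8 had a column in the count table. The cells came from mesenteric lymph nodes of male mice, and each of the 4 libraries pooled 3 mice. Foxp3GFP mice carry a GFP reporter of Foxp3, the transcription factor that defines regulatory T cells (Tregs). Foxp3CNS1- mice lack CNS1, a conserved noncoding enhancer in the Foxp3 gene that is used when Foxp3 is switched on outside the thymus, and their cells were sorted by GFP as well. Mice of both genotypes were either kept germ-free or colonized with fecal microbiota of specific-pathogen-free mice and examined on day 9 after colonization. The 4 groups are germ-free Foxp3GFP, colonized Foxp3GFP, germ-free Foxp3CNS1- and colonized Foxp3CNS1-, with 1 library each. From every group GFP+ and GFP- CD4 T cells were mixed at 50% each, so the share of Tregs was set by the sort. About 5000 cells were targeted per library with a droplet method that counts the 3' ends of transcripts by unique molecular identifiers (UMIs).

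GIMAP proteins are small GTPases of lymphocytes that sit on intracellular membranes and are known for keeping resting T cells alive and quiescent. Loss of Gimap5 in mice or rats leaves few peripheral T cells, and Gimap1 is needed by mature T and B cells. Gimap3, closely related to Gimap5, also supports T cell survival, whereas Gimap4 has been tied to the execution of T cell death and Gimap6 to autophagy. Gimap7 can pair with other family members through its GTPase domain. The genes lie side by side in mammals, and their products share an AIG1-type GTPase domain.

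In the GENCODE vM21 annotation of build mm10 (GRCm38), the 8 genes occupy 123.6 kb of chromosome 6, from base 48647234 to base 48770851. Gimap8 (48647234 to 48660875), Gimap9 (48676129 to 48679114), Gimap4 (48684549 to 48692060), Gimap7 (48718621 to 48724636), Gimap1 (48739054 to 48743795) and Gimap5 (48746197 to 48754210) lie on the plus strand. Gimap6 (48701582 to 48708225) and Gimap3 (48764464 to 48770851) lie on the minus strand. A joined gene model, Gm28053 (48718607 to 48752644), overlaps Gimap7, Gimap1 and Gimap5 on the same strand and has no column of its own, so reads of those 3 genes may have been shared with it. Gimap1os (48738346 to 48741444) runs antisense to Gimap1 and was counted separately. The last 1000 transcript bases of each member, the end this assay reads, hold 911 windows of 90 bases, the length of the cDNA read, and none of them occurred exactly in another member's transcripts.

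Promoter windows of 3 members are shown: Gimap7 differed most between clusters, and Gimap4 and Gimap1 had ratios of opposite sign between colonized and germ-free mice. Each runs 5′ to 3′ on the sense strand from 250 to 51 bases before the RefSeq start (GRCm38.p6), over chr6:48718371-48718570, chr6:48684328-48684527 and chr6:48738797-48738996, all on the plus strand. Capitals mark the reverse complement of the RUNX core TGTGGT.
Gimap7: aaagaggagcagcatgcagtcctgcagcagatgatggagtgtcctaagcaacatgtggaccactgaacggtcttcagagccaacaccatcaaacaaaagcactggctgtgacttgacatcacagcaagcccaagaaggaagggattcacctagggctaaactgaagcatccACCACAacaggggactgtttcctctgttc
Gimap4: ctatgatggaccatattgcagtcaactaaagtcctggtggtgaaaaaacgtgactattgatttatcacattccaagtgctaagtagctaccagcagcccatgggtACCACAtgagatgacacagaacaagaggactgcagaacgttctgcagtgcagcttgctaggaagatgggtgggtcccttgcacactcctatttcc
Gimap1: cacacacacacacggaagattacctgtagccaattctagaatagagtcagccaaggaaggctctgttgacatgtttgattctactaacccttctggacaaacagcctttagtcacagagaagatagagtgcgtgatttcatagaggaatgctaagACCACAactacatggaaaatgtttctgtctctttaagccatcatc
RUNX factors are central regulators of T cell genes. The core TGTGGT, searched on both strands, was present in these 3 windows and in none of the windows of the other 5 members, against 11.6% of all 32851 promoter windows of this length. Of the other letters searched on both strands, the ETS core GGAAGT (14.6% of all windows) occurred in Gimap5 alone, the forkhead core TGTTTAC (2.58%) in Gimap3 alone and the STAT pattern TTCNNNGAA (5.76%) in Gimap6 alone. GAAANNGAA, a pattern of interferon-response elements (5.79% of all windows), occurred in no member's window. Gimap8, which also carries results below, had no match to any of these letters, and its windows are not shown. These are matches of letters, no binding was measured, and a link between the letters and the levels was not tested.

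**Figure D1:**
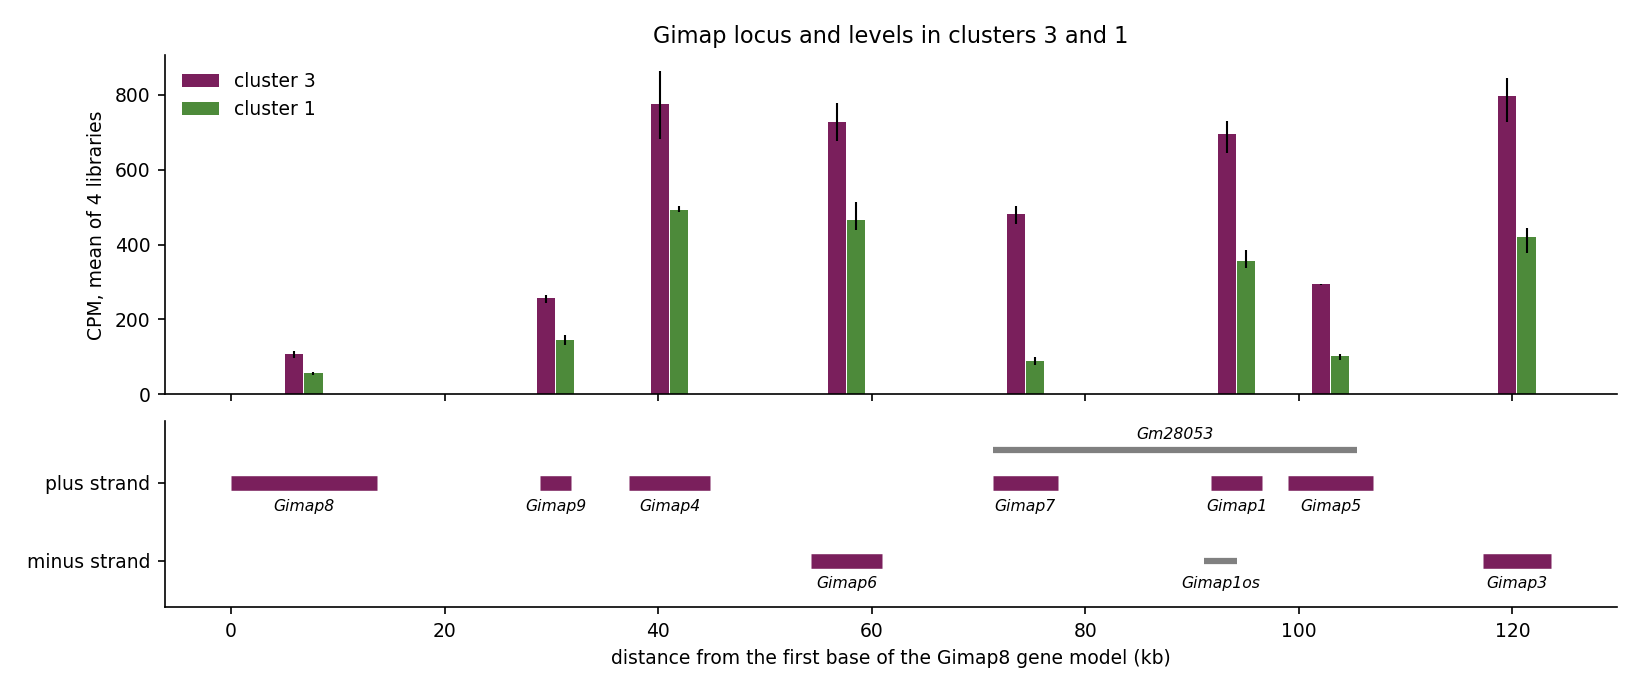
The Gimap locus drawn to scale, with distance from the first base of the Gimap8 gene model on the horizontal axis in kb and gene models on their strands, below bars of the mean CPM of 4 libraries in clusters 3 and 1, whose lines span the lowest to the highest library. Every member was higher in cluster 3, and the Gimap7 bars differed most, at 481 against 88.9 CPM.

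After the authors' filter 16948 cells remained, 3533 to 5406 per library, with 9360112 to 17929193 UMIs per library and a median of 2286 to 2832 UMIs per cell. The 2 germ-free libraries were the shallower ones, with medians of 2399 and 2286 UMIs against 2832 and 2764. Of the kept cells, 314 had a barcode that occurs in more than 1 library. Levels are given as UMIs of a gene per 1000000 UMIs of the same cells (CPM), which is a share of all RNA counted and does not scale with transcript length. With 1 library per group, group, mouse pool, library and any batch cannot be told apart, no test is possible, and the 95% intervals cover counting error only. The authors' clusters 0 to 9 were made from all genes of these cells, so differences between clusters are described and not tested, with their spread over the 4 libraries, which are different groups and not replicates.

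All 6 CD4 T cell markers were detected in at least 10% of cells in each of the 10 clusters. Clusters 1 and 2 were naive-like, with 9 of 9 naive markers above the other cells. Clusters 0 and 6 were Treg-like, with 9 and 10 of 10 Treg markers higher, and cluster 5 was effector- or memory-like (10 of 10). Cluster 8 was proliferating (9 of 9) and cluster 9, with 84 cells, was follicular helper-like (10 of 10). In cluster 3 all 10 Treg markers were higher, and Foxp3 averaged 242 CPM, the highest of the 10 clusters. At least 2-fold higher were 9 Treg markers in cluster 3, 2 in cluster 0 and 0 in cluster 6. The 10 leading genes of cluster 3, Epcam and Serpina3g first, held Ccl5 of the CD8 or NK list and no Treg marker. Those of cluster 6 held no Treg marker either. Of the 7 counted genes of the CD8 or NK list, 3 were higher in cluster 3 than in the other cells. The median log2 ratio of that list was -0.24 there, beside 1.62 for the Treg list. Cluster 3 is given by number, and clusters 0, 3 and 6 are compared by number throughout. Of other cell types, the B cell list summed to 504 CPM in cluster 3 and the plasma cell list to 2418 CPM; of the Jchain, Iglc1 and Igha UMIs there, 9266 of 9307 in colonized Foxp3CNS1- mice lay in 2 cells and 627 of 638 in colonized Foxp3GFP mice in 1 cell. Those 3 cells held 5 Gimap UMIs, and the part of the B cell genes in the Gimap levels was not tested. The myeloid list summed to 150 CPM in cluster 5, against 9.2 in the other cells. In cluster 8 all 8 genes of the B cell list were higher, with a sum of 278 against 175 CPM. The part of these genes in the Gimap levels was not tested either. Clusters 4 and 7, with Notch2, Slc39a1 and Actb among their leading genes, were left unnamed. Across clusters 0, 3 and 6 Foxp3 stood at 146 to 177 CPM in the 4 libraries, but CNS1 is noncoding, so these 3'-end counts do not check its deletion.

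All 8 Gimap genes were detected in every library, and together they summed to 2639 to 2843 CPM. Gimap4 had the highest average over the 4 libraries at 593 CPM, followed by Gimap6 at 532, Gimap3 at 515 and Gimap1 at 464 CPM. Gimap7 averaged 223, Gimap9 187, Gimap5 168 and Gimap8 67.0 CPM. The ranges of Gimap4 (542 to 648), Gimap6 (504 to 565) and Gimap3 (508 to 531) overlapped between libraries, and Gimap8 (60.7 to 73.2) lay below all others. In total 142404 Gimap UMIs were counted, from 31084 for Gimap4 to 3415 for Gimap8.

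Among the clusters the summed level was highest in cluster 3 and lowest in the proliferating cluster 8. It averaged 4132 CPM in cluster 3 (3943 to 4265 over the 4 libraries), 3256 in cluster 0 and 3234 in cluster 5. Clusters 6, 4, 7, 2 and 9 lay between 2840 and 2505 CPM, each overlapping its neighbour in that order. Naive-like cluster 1 stood at 2127 (2051 to 2202) and cluster 8 at 1580 CPM (1495 to 1698). Cluster 3 overlapped no other cluster, and neither did clusters 1 and 8 at the low end. Per cell the order of the extremes was different, because cells of cluster 8 held a median of 5251 to 7392 UMIs against 1786 to 2259 in cluster 3. A cell of cluster 8 held 12.4 Gimap UMIs on average, more than the 9.53 of a cell of cluster 3 and the 6.25 of cluster 1.

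The share of ribosomal protein genes also differed between clusters. It was high in naive-like clusters 1 and 2 and lower in clusters 3, 5, 8 and 9. The Gimap sums of clusters 3 and 5 were among the higher ones, and those of clusters 8 and 9 among the lower ones. The share came to 46.8% to 47.6% of UMIs in cluster 1 and 42.3% to 42.6% in cluster 2. It was 26.0% to 29.95% in cluster 3, 31.03% to 32.4% in cluster 5, 30.8% to 32.9% in cluster 8 and 21.9% to 28.6% in cluster 9. Of the 5367 genes with at least 200 UMIs in clusters 3 and 1 together, 82.5% had a higher mean level in cluster 3, with a median log2 ratio of 0.41, against a median of 0.94 for the 8 members. With totals that leave out ribosomal protein, mitochondrial and heat shock genes, the summed level in cluster 3 was 1.41-fold that of cluster 1, against 1.94-fold with all UMIs. The part of the ribosomal share in each cluster difference beyond this comparison was not tested.

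**Figure D2:**
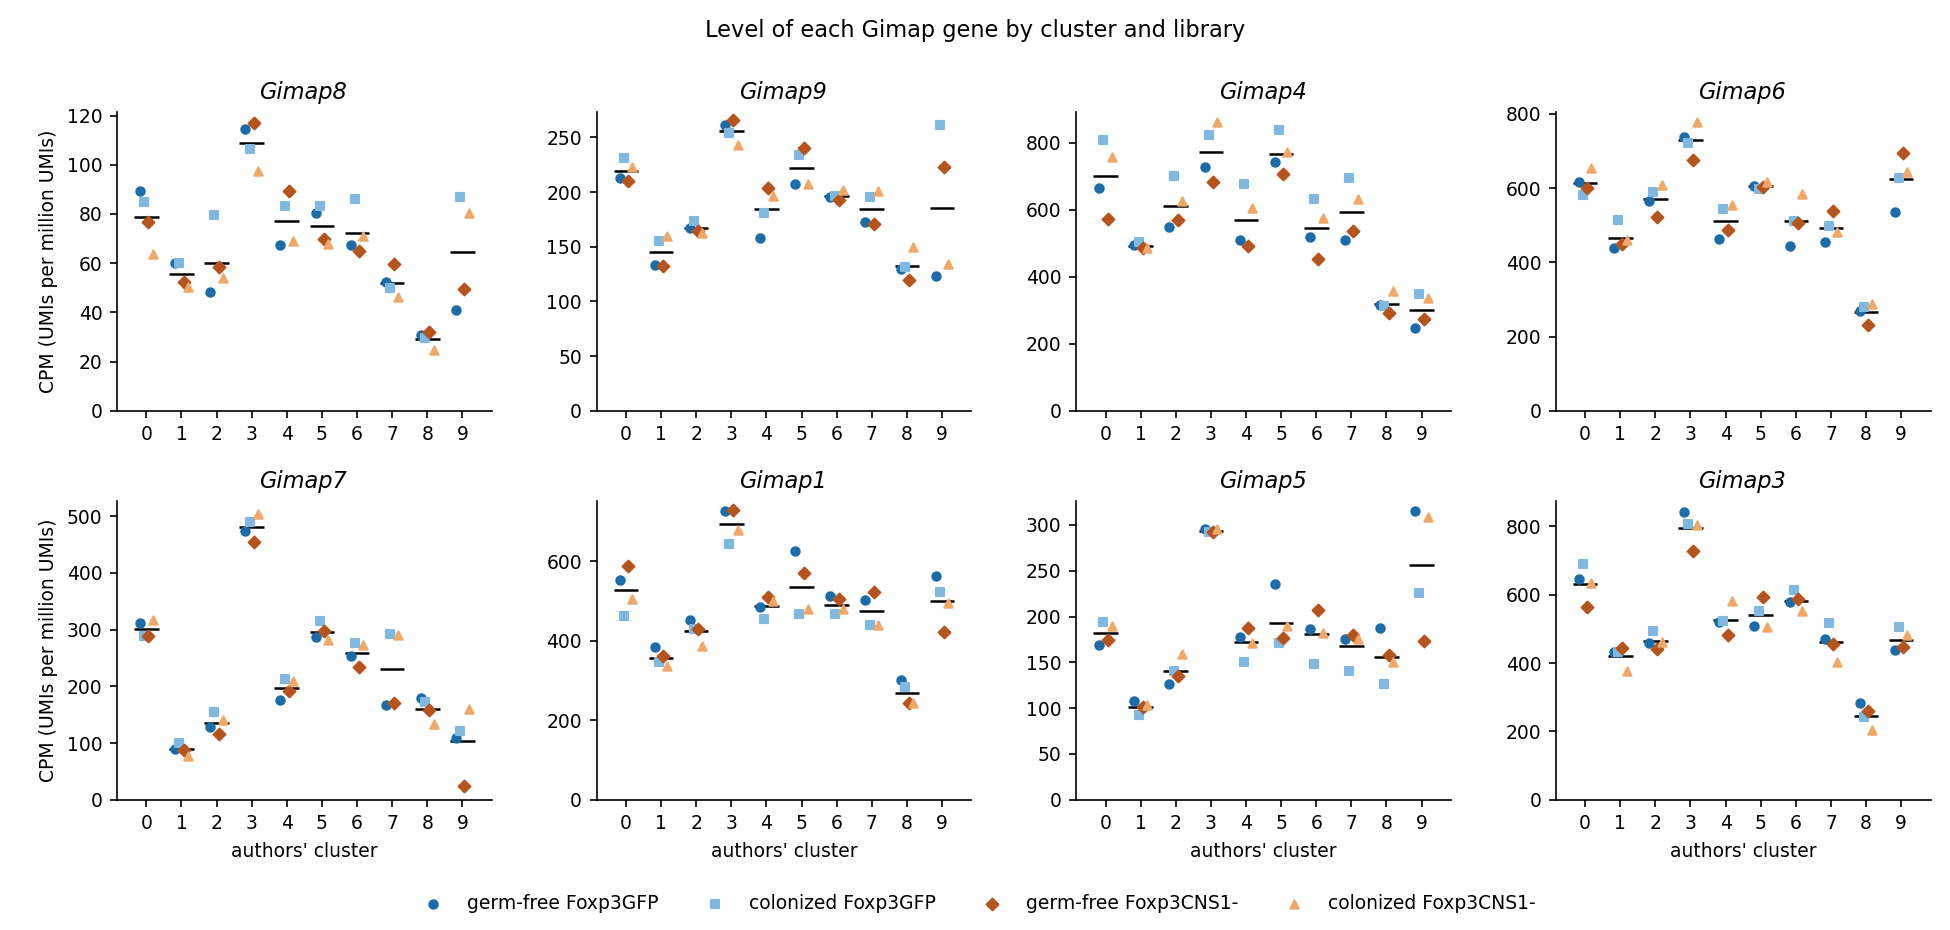
Level of each Gimap gene in the authors' clusters 0 to 9, in CPM on a linear axis from 0, with 1 point per library and a line at the mean of the 4 libraries. Gimap7 spans 88.9 CPM in cluster 1 to 481 CPM in cluster 3. Cluster 9 holds 84 cells.

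Of the members linked to T cell survival, Gimap5 was lowest in the naive-like cells. In cluster 3 the Foxp3GFP mice gave 295 CPM when germ-free and 292 when colonized, and the Foxp3CNS1- mice 292 and 296. In cluster 1 the same libraries gave 108, 92.6, 101 and 104 CPM. The clusters did not overlap, and the mean in cluster 3 was 2.89-fold that in cluster 1 (2.73 to 3.15 within libraries). Follicular helper-like cluster 9 came next at 256 CPM, with a range of 174 to 315 that overlapped cluster 3 and rests on 66 UMIs.

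Gimap1 and Gimap3 were lowest in proliferating cells instead. Gimap1 averaged 695 CPM in cluster 3 (643 to 729), 357 in cluster 1 (337 to 385) and 268 in cluster 8 (243 to 302). Gimap3 averaged 796 CPM in cluster 3 (727 to 843), 421 in cluster 1 (377 to 444) and 246 in cluster 8 (204 to 283), a 3.23-fold range of means. For both genes all 4 libraries of cluster 3 lay above every library of the next cluster, and those of cluster 8 below every library of the one before it.

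Gimap7 varied most of the 8. In cluster 3 it measured 474 CPM without and 491 with colonization in Foxp3GFP mice, and 455 and 504 in Foxp3CNS1- mice. In cluster 1 the values in that order were 89.8, 100.1, 87.9 and 78.0 CPM. The mean was 5.41-fold higher in cluster 3, with 4.90 to 6.46 within libraries, and 3.94-fold with totals that leave out ribosomal protein, mitochondrial and heat shock genes. Clusters 0 (302 CPM) and 5 (296 CPM) overlapped each other and lay above every library of cluster 6 (259 CPM), while unnamed cluster 7 (168 to 292 CPM) reached up to them. Cluster 9 fell in the low range at 104 CPM, where 1 to 12 UMIs per library make its place uncertain. Gimap7 made up 11.7% of all Gimap UMIs in cluster 3 and 4.18% in cluster 1.

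The autophagy-linked Gimap6 and the death-linked Gimap4 differed less between naive-like and Treg marker clusters. Gimap6 averaged 728 CPM in cluster 3 (675 to 779), 466 in cluster 1 (438 to 514) and 267 in cluster 8 (232 to 287), and cluster 9 (535 to 695) overlapped cluster 3. Gimap4 averaged 774 CPM in cluster 3 (682 to 862) and 765 in effector- or memory-like cluster 5 (706 to 839). These 2 overlapped, and cluster 5 came first under each of the 4 other ways of computing the level. Gimap4 was lowest in clusters 8 (320 CPM) and 9 (301 CPM), which also overlapped.

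The remaining members, Gimap8 and Gimap9, also had their highest mean in cluster 3. Gimap8 averaged 109 CPM in cluster 3 (97.6 to 117) and 29.3 in cluster 8 (24.7 to 32.1). Gimap9 had the narrowest range of means, 256 CPM in cluster 3 (243 to 266) to 133 in cluster 8 (119 to 150), or 1.93-fold. For Gimap9 cluster 1 (145 CPM) overlapped cluster 8, and cluster 9 (123 to 261 CPM, 43 UMIs) overlapped both cluster 3 and cluster 8.

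Taking clusters 0, 3 and 6 together against clusters 1 and 2 within each library, all 8 members were higher in 4 of 4 libraries. The interval of Gimap4 held 0 in germ-free Foxp3CNS1- mice (log2 ratio 0.063, -0.033 to 0.16). The share of all genes higher in this comparison was not computed. Between clusters 3 and 1 that share was 82.5% of 5367 genes. The mean log2 ratio was 1.60 for Gimap7 (1.48 to 1.85) and 0.80 for Gimap5 (0.73 to 0.90). Gimap3 (0.58), Gimap8 (0.54), Gimap1 (0.51) and Gimap9 (0.50) lay close together, and Gimap4 (0.30, from 0.06 to 0.49) and Gimap6 (0.24, from 0.14 to 0.40) were lowest. The ratio of the sum was 0.52 (0.45 to 0.65). With totals that leave out ribosomal protein, mitochondrial and heat shock genes it fell to 0.28, and every gene's ratio dropped by the same amount in a given library. Gimap7 then stood at 1.36 and Gimap5 at 0.56, both higher in 4 of 4 libraries, whereas Gimap4 (0.059) was higher in 3 and Gimap6 (0.00019) in 2 of 4.

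**Figure D3:**
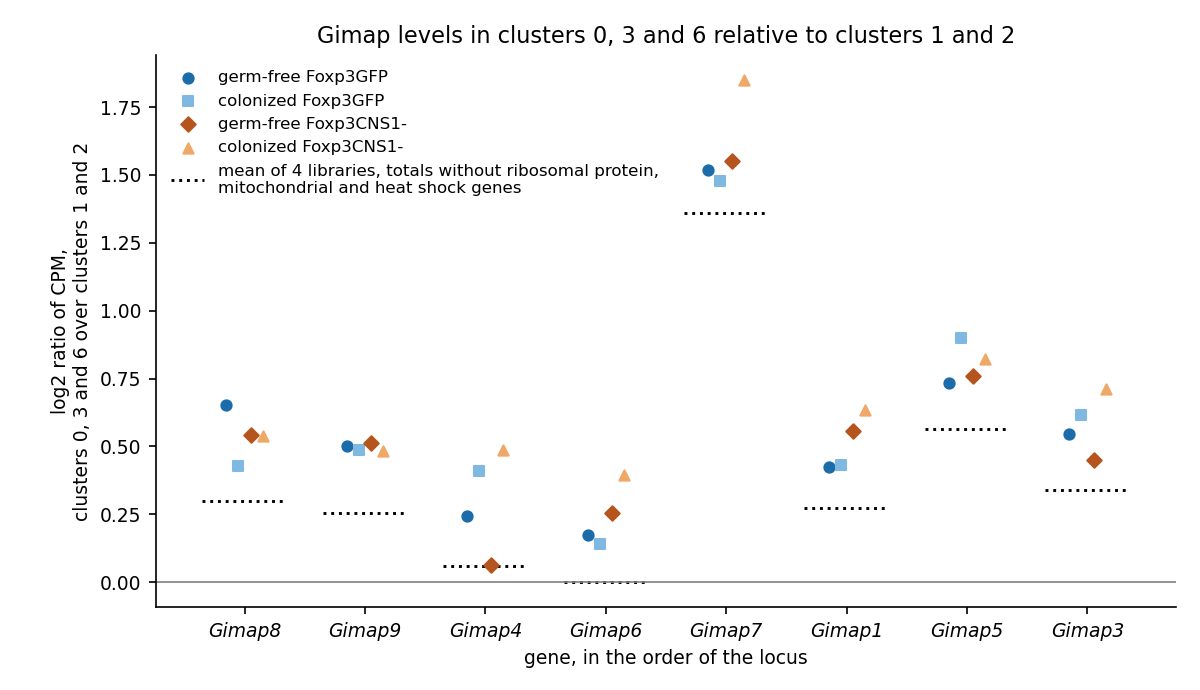
Log2 ratio of CPM in clusters 0, 3 and 6 over clusters 1 and 2 for each Gimap gene, 1 point per library, with a dotted line at the 4-library mean when ribosomal protein, mitochondrial and heat shock genes are left out of the totals. All points lie above 0, Gimap7 is highest at 1.48 to 1.85, and the dotted lines of Gimap4 and Gimap6 lie at or near 0.

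The authors' cell table gives part of the cells a second grouping, subsets s0 to s9. Subset s0, of which 86.9% came from cluster 3, had a summed level of 4129 CPM and 476 CPM of Gimap7. Subset s4, of which 70.9% came from cluster 0 and 24.2% from cluster 5, stood as high at 4276 CPM, with 531 CPM of Gimap7 (522 to 547) and 937 CPM of Gimap4 (814 to 1046). The largest source of s1 (96.0% of its cells) was also cluster 0, and there the sum was 3078 and Gimap7 269 CPM. Their ribosomal protein shares differed too, at 28.1% in s4 and 38.8% in s1, and the part of this in the difference was not tested. Subsets s6 and s8 had the lowest sums, 1591 and 1719 CPM. Proliferating cluster 8 gave 74.2% of the cells of s6 and 96.0% of those of s8, and cluster 6 gave 22.5% of s6. Subset s9, with 17 cells in 2 libraries, had the highest Gimap7 level at 888 CPM, from 45 UMIs.

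Most single cells carried several members. After each cell was thinned to 1500 UMIs, which left 15663 cells, a cell held UMIs of 3.00 different members on average, and 494 cells (3.15%, exact binomial 95% interval 2.89% to 3.44%) held none. In cluster 3 the average was 3.92 members, and 3 of 1517 cells (0.198%, 0.0408% to 0.577%) held none. In cluster 1 it was 2.42 members, with 5.28% of cells without any, and in cluster 8 it was 2.07, with 10.9% without. Of 1846 cells in cluster 3, 329 had under 1500 UMIs and were left out, against 41 of 2751 in cluster 1. No cluster here lacks the genes, so the share expected from free RNA alone has no reference among these cells.

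Over the 36 sums of a cluster in a library that held at least 50 cells, the members moved alike to different degrees. Pearson's r of log2(CPM + 10) with the sum of the other 7 was 0.92 for Gimap9 and Gimap3, 0.91 for Gimap1, 0.89 for Gimap8 and Gimap6 and 0.85 for Gimap4. It was 0.72 for Gimap7 and 0.64 for Gimap5, while these 2 had an r of 0.86 with each other. Gimap4 and Gimap6 had an r of 0.92 with each other, and Gimap3 and Gimap8 had 0.92. Among 2321 other genes, those most like the summed members were Shisa5 (r 0.97), Cd37 (0.96), Pbxip1 (0.94), Resf1 (0.94) and Leprotl1 (0.93). The least alike were Npm3 (-0.95), Bola2 (-0.93), Nme2 (-0.91), Npm1 (-0.91) and Snhg3 (-0.90). The sums share libraries, depth and the ribosomal share, so these values describe the 36 sums only.

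Between colonized and germ-free mice Gimap levels differed little, with Gimap4 higher and Gimap1 lower in the colonized libraries. In clusters 0, 3 and 6 Gimap4 measured 618 CPM in germ-free and 765 in colonized Foxp3GFP cells, a log2 ratio of 0.31 (95% interval 0.23 to 0.39). In Foxp3CNS1- cells it measured 563 and 753 CPM, a log2 ratio of 0.42 (0.34 to 0.49). Both germ-free libraries lay below both colonized ones. Gimap1 measured 564 and 509 CPM in germ-free and colonized Foxp3GFP cells (-0.15, -0.24 to -0.06) and 595 and 552 CPM in Foxp3CNS1- cells (-0.11, -0.19 to -0.03), so here the germ-free libraries lay above. Among cells with a Foxp3 UMI, the Gimap1 ratio in Foxp3CNS1- mice had the other sign, at 0.038.

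A gene was counted as past the fold where its log2 ratio was at least 0.322 either way, and genes needed 200 UMIs in the 2 libraries together. All 8 members had that many in every comparison. In clusters 0, 3 and 6 of Foxp3GFP mice 0 of 8 members were past it between colonized and germ-free cells, against 15.9% of 4277 genes. In the same clusters of Foxp3CNS1- mice 1 of 8 was, Gimap4, against 15.7% of 5184 genes, and at 1.5-fold none was. In clusters 1 and 2 no member was past it in Foxp3GFP (13.9% of 3792 genes) or Foxp3CNS1- mice (13% of 3391 genes). The members' median log2 ratio was 0.092 in clusters 0, 3 and 6 of Foxp3GFP mice and 0.11 in Foxp3CNS1- mice, beside -0.019 and -0.042 for all genes. Plasma cell markers summed to 1450 CPM in clusters 0, 3 and 6 of the colonized Foxp3CNS1- library against 58.6 to 242 in the other 3 libraries. Of its 9357 UMIs of Jchain, Iglc1 and Igha, 9266 lay in 2 cells, and without such cells the Gimap4 ratio was 0.43. Germ-free cells were shallower, and with every cell thinned to 1500 UMIs the Gimap4 ratios were 0.32 and 0.41 and the Gimap1 ratios -0.10 and -0.12.

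By cluster, Gimap4 was higher after colonization in 9 of 10 clusters in Foxp3GFP and 10 of 10 in Foxp3CNS1- mice. In cluster 0 the log2 ratios were 0.28 (0.17 to 0.39) and 0.40 (0.30 to 0.51), and in cluster 6 they were 0.29 (0.14 to 0.44) and 0.34 (0.17 to 0.51). Cluster 3 gave 0.18 (0.0050 to 0.36) and 0.34 (0.20 to 0.48). Naive-like cluster 1 gave 0.024 (-0.098 to 0.15) and 0.00038 (-0.15 to 0.15), so no difference was detectable there at this depth. Naive-like cluster 2 gave 0.36 (0.23 to 0.48) and 0.14 (0.0074 to 0.26). Gimap1 was lower in 10 of 10 clusters in Foxp3GFP and 9 of 10 in Foxp3CNS1- mice, with median ratios of -0.14 and -0.10 and the interval below 0 in 3 and 2 of them. Effector- or memory-like cluster 5, among the most negative, gave -0.42 (-0.62 to -0.22) and -0.25 (-0.40 to -0.097). Neighbouring clusters share their libraries, so these counts are not independent.

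**Figure D4:**
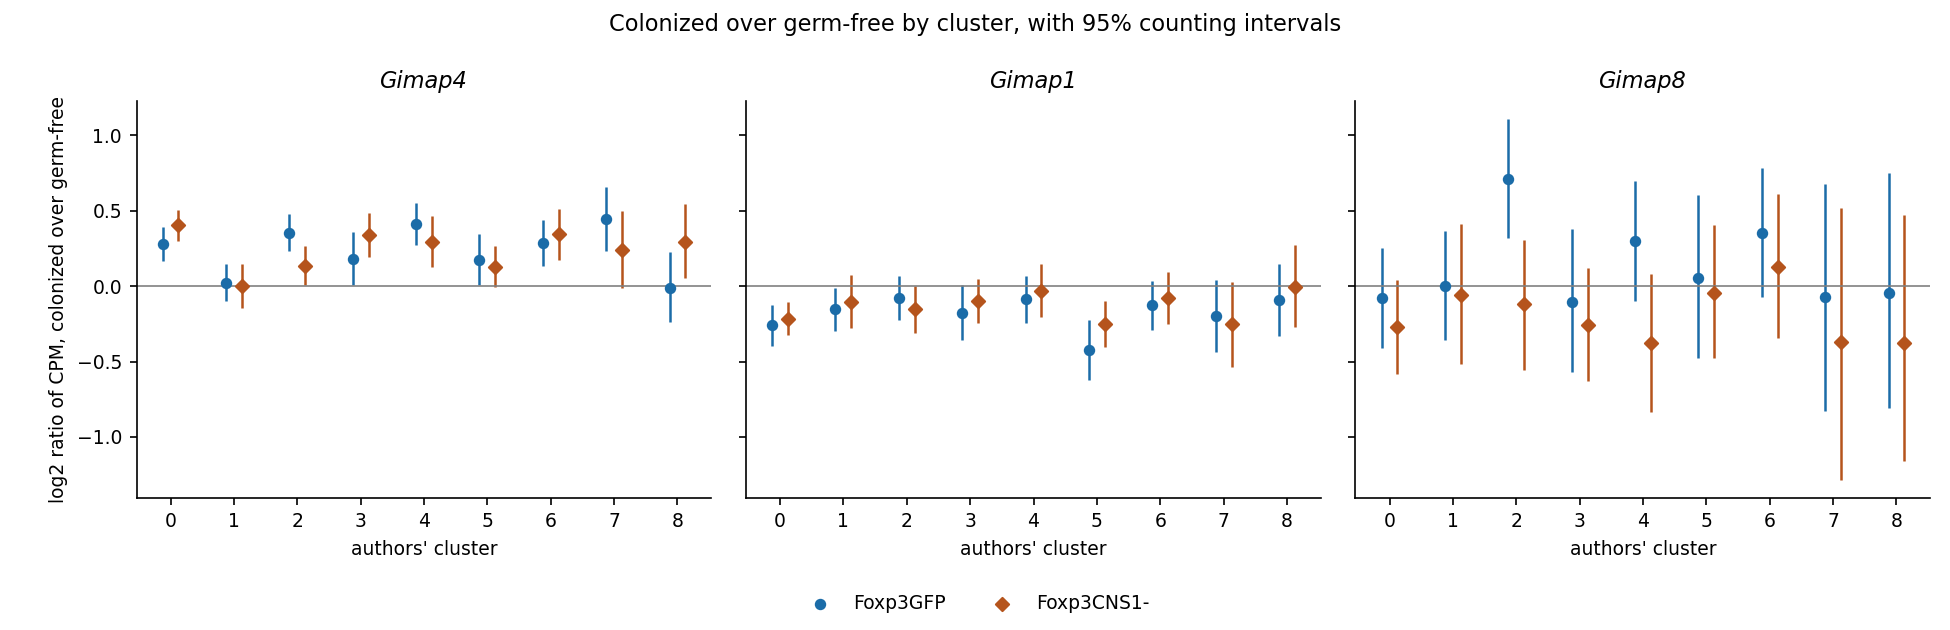
Log2 ratio of CPM in colonized over germ-free mice by cluster for Gimap4, Gimap1 and Gimap8, with 95% counting intervals, for Foxp3GFP and Foxp3CNS1- mice. Cluster 9 (84 cells) is not drawn. Gimap4 lies above 0 in all but 1 of these values and Gimap1 below 0 in all of them, while the intervals of Gimap8 hold 0 except in cluster 2 of Foxp3GFP mice (0.71).

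No other member reached the ratio of Gimap4 between colonized and germ-free mice in clusters 0, 3 and 6, but in Foxp3CNS1- mice Gimap7, Gimap6, Gimap3 and Gimap8 (-0.126) lay farther from 0 than Gimap1. Gimap7 had log2 ratios of 0.10 (-0.02 to 0.21) in Foxp3GFP and 0.23 (0.13 to 0.34) in Foxp3CNS1- mice, Gimap6 0.07 (-0.02 to 0.16) and 0.20 (0.12 to 0.27), and Gimap3 0.10 (0.02 to 0.18) and 0.15 (0.07 to 0.22). Gimap5 (0.07 and 0.08) and Gimap9 (0.09 and 0.05) had intervals that hold 0 in both genotypes. The summed level was 3427 against 3210 CPM in Foxp3GFP (0.09, 0.06 to 0.13) and 3534 against 3168 CPM in Foxp3CNS1- mice (0.16, 0.13 to 0.19). Cluster 3, where the sum is highest, made up 6.31% of Foxp3GFP cells without and 10.8% with colonization, and 10.3% and 14.7% of Foxp3CNS1- cells. With the same mix of the 3 clusters in the 2 libraries of each comparison, the ratios of the sum were 0.032 and 0.11. Without Gimap4 they were 0.039 and 0.094.

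In naive-like clusters 1 and 2 Gimap1 was again lower after colonization, at 377 against 420 CPM in Foxp3GFP (-0.16, -0.26 to -0.06) and 355 against 405 CPM in Foxp3CNS1- mice (-0.19, -0.30 to -0.08). Gimap4 measured 576 against 522 CPM in Foxp3GFP (0.14, 0.06 to 0.23) and 538 against 539 CPM in Foxp3CNS1- mice (-0.0030, -0.10 to 0.09). Gimap8 measured 67.3 against 54.0 CPM in Foxp3GFP mice (0.318, 0.06 to 0.58), just short of the fold, and with cells thinned to 1500 UMIs the ratio was 0.62. The difference lay in cluster 2, at 79.4 against 48.4 CPM (0.71, 0.32 to 1.11), and not in cluster 1, at 60.1 against 60.0 CPM. In Foxp3CNS1- mice it measured 51.7 against 56.3 CPM (-0.12, -0.42 to 0.18).

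The antisense Gimap1os, at 22.8 to 97.7 CPM by cluster, had negative ratios like those of Gimap1: -0.41 (-0.73 to -0.08) and -0.17 (-0.46 to 0.11) in clusters 0, 3 and 6, and -0.30 and -0.37 in clusters 1 and 2, in Foxp3GFP and Foxp3CNS1- mice. No source used here says whether reads were counted by strand, so it is not known whether reads of the 2 genes were kept apart where they overlap.

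Between the genotypes the members differed little. In germ-free mice 0 of 8 were past the fold in clusters 0, 3 and 6 (10.3% of 3972 genes) and in clusters 1 and 2 (7.8% of 3461 genes). The summed level in clusters 0, 3 and 6 was 3168 CPM in Foxp3CNS1- and 3210 in Foxp3GFP cells (-0.019, -0.06 to 0.02). Gimap4 (-0.14, -0.23 to -0.05) and Gimap3 (-0.11, -0.19 to -0.02) were the members whose intervals lay below 0 there, and in clusters 1 and 2 every member's interval held 0.

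In colonized mice 0 of 8 members were past the fold in clusters 0, 3 and 6 (7.3% of 5381 genes) and 1 of 8, Gimap8, in clusters 1 and 2 (7.38% of 3714 genes). Gimap8 measured 51.7 CPM in Foxp3CNS1- and 67.3 in Foxp3GFP cells of clusters 1 and 2 (-0.38, -0.65 to -0.12), and 75.1 against 90.5 CPM in clusters 0, 3 and 6 (-0.27, -0.46 to -0.08). With cells thinned to 1500 UMIs these ratios were -0.44 and -0.098. It was lower in Foxp3CNS1- cells in 10 of 10 clusters, with the interval below 0 in 2 of them, and at 1.5-fold it was not past the threshold. Gimap6 (0.18, 0.11 to 0.25), Gimap1 (0.12, 0.04 to 0.19) and Gimap7 (0.11, 0.02 to 0.21) were slightly higher in clusters 0, 3 and 6 of Foxp3CNS1- mice. In clusters 1 and 2 Gimap7 was lower (-0.26, -0.45 to -0.06), as were Gimap3 (-0.16) and Gimap4 (-0.10). The comparisons share libraries: each germ-free and each colonized library enters one comparison of colonization and one of genotype.

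**Figure D5:**
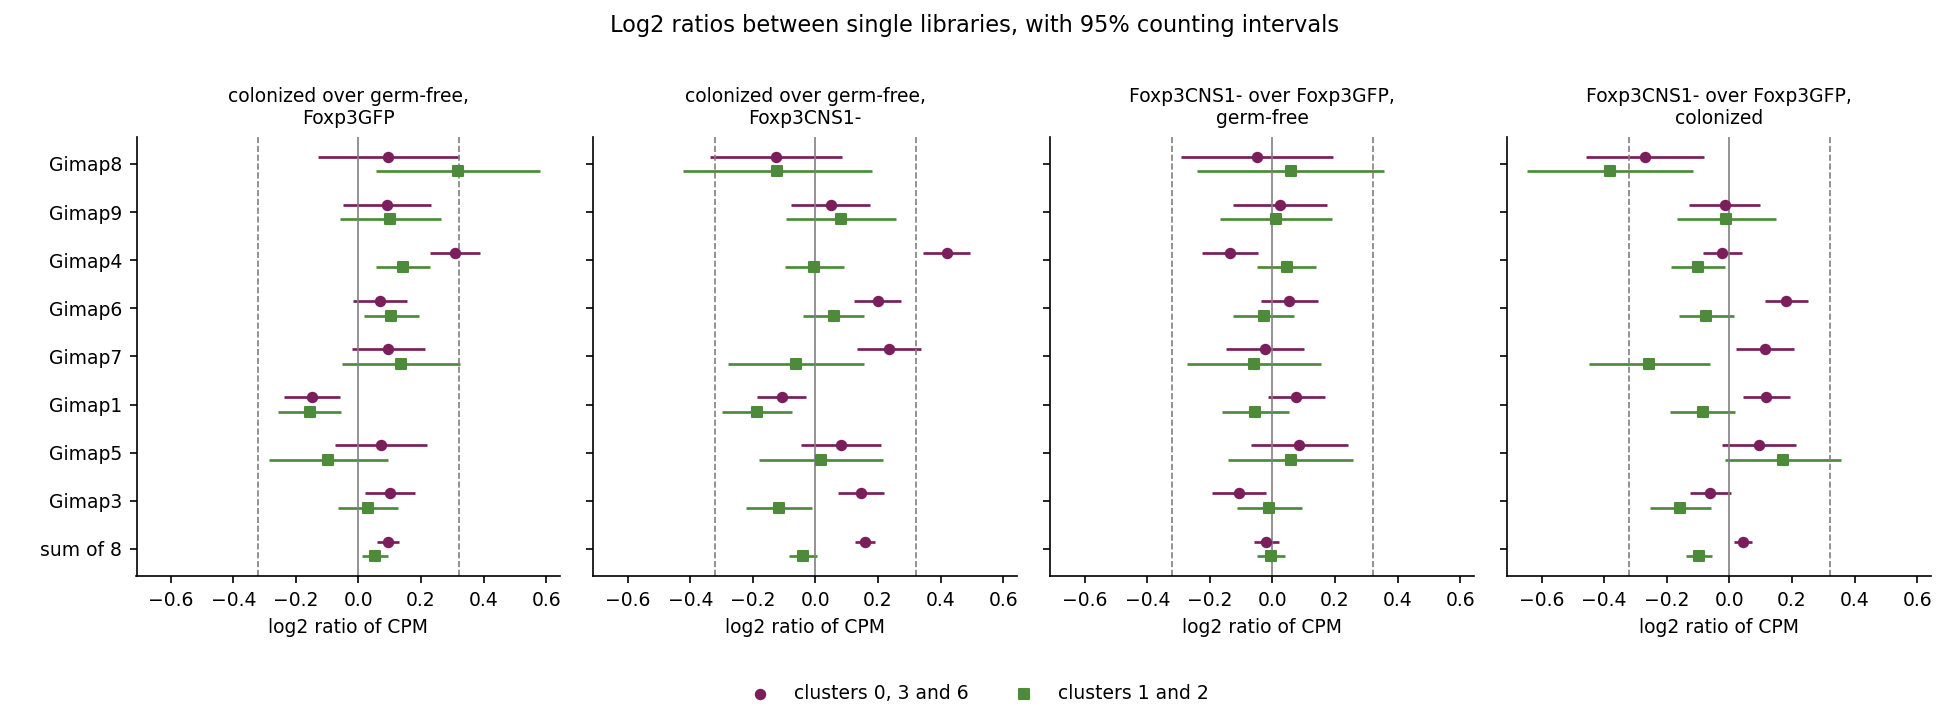
Log2 ratios of CPM between 2 libraries for each Gimap gene and their sum, with 95% counting intervals, in clusters 0, 3 and 6 and in clusters 1 and 2; dashed lines mark a log2 ratio of 0.322 either way. Gimap4 passes the line in Foxp3CNS1- mice (0.42) and Gimap8 in colonized clusters 1 and 2 (-0.38).

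Of 26 genes of T cell survival and quiescence, chosen with earlier results of these data known, 17 had a higher mean level in cluster 3 than in cluster 1 and 9 a lower one. The 23 with at least 200 UMIs in these clusters had a median log2 ratio of 0.20, below the 0.41 of all 5367 genes with as many. Among the higher ones were Il2rg, the shared cytokine receptor chain, at 352 against 262 CPM, and Bax, which promotes apoptosis, at 206 against 127 CPM. Klf2 and Lef1, transcription factors of naive T cells, stood at 1043 and 530 CPM in cluster 1 and at 159 and 107 CPM in cluster 3. Il7r, the receptor chain for the survival cytokine IL-7, was at 144 CPM in cluster 1 and 142 in cluster 3, and the antiapoptotic Bcl2 at 445 and 260 CPM. Of the 26 genes, 21 had at least 200 UMIs in the colonization comparison of clusters 0, 3 and 6 in Foxp3GFP mice, 0 being past the fold upwards and 3 downwards, with a median log2 ratio of -0.019. In Foxp3CNS1- mice it was 2 and 3 of 23, with a median of -0.056. Over all genes 15.9% in Foxp3GFP and 15.7% in Foxp3CNS1- mice were past the fold either way, with medians of -0.019 and -0.042.

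All 12 interferon-stimulated genes of the list, among them the immunity-related GTPases Igtp and Iigp1, were higher in colonized mice in both genotypes and both sets of clusters. Their median log2 ratios were 0.87 and 0.64 in clusters 0, 3 and 6 and 1.001 and 0.52 in clusters 1 and 2, in Foxp3GFP and Foxp3CNS1- mice. The Gimap medians in the same order were 0.092 and 0.11, and 0.10 and -0.033. Of 9 neighbouring genes on the list, 6 were in the count table, and Tmem176a and Tmem176b, on the far side of Gimap3, stood at 4.08 and 6.23 CPM in cluster 1 and at 39.4 and 51.6 CPM in cluster 5, all below every Gimap gene in the same cluster.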

How the data were processed

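Single-cell RNA of CD4 T cells from 4 libraries was analysed. Per the labels, libraries were made with 10x 3' chemistry; per the submitters' processing notes the authors used Cell Ranger and Scanpy 1.5.1 with build mm10. No source used here gives the Cell Ranger version, the strand setting or the cell filter. The authors deposited whole-number UMI counts of 17478 cells and 13314 genes, not normalized, and a cell table with library, filter and cluster for 17251 cells. The 227 cells without a row and 303 cells the authors removed were left out. Doublet removal by the authors is not stated, and no doublet caller was run here. The table has 3 more columns that were not used.

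Counts were summed per library and cluster and divided by the summed total (CPM) with numpy 2.4.6, scipy 1.17.1 and pandas 2.3.3 in Python 3.11.15. Level intervals are exact Poisson, ratio intervals exact Clopper-Pearson, shares exact binomial, all at 95%. The ratio script was tested on simulated data. The named genes are all 8 members, the 5 most and 5 least alike genes by Pearson's r among those with a mean of at least 50 CPM (no ribosomal protein, mitochondrial or antigen receptor gene), and genes of short lists. The members, lists and tests were chosen with earlier results of these data known. Alternatives were thinning to 1500 UMIs, equal cluster mix, equal weight per cell, and totals without ribosomal protein, mitochondrial and heat shock genes. Others were cells with at least 2000 UMIs, cells by Foxp3, the sum without Gimap4, a 1.5-fold threshold and a minimum of 50 UMIs. In the equal cluster mix each cluster was weighted in both libraries by its share of their pooled cells. Leaving out plasma cell marker cells (10 or more UMIs of Jchain, Iglc1 and Igha) or shared barcodes was added after seeing the data. Locations come from GENCODE vM21 and promoter sequences from RefSeq GRCm38.p6, in which all 8 members matched by symbol.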

Additional observations from a re-analysis of the deposited data

Results flagged for a closer look

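For 7 measures the ratios between colonized and germ-free mice had opposite signs in the 2 genotypes; the difference between genotypes was not tested, since each rests on 1 library per group. In clusters 0, 3 and 6 Gimap8 had a log2 ratio of 0.094 in Foxp3GFP and -0.13 in Foxp3CNS1- mice. In clusters 1 and 2 the values in Foxp3GFP and Foxp3CNS1- mice were 0.030 and -0.12 for Gimap3, 0.14 and -0.0030 for Gimap4, -0.096 and 0.017 for Gimap5, 0.13 and -0.063 for Gimap7, 0.32 and -0.12 for Gimap8, and 0.052 and -0.040 for the sum. In each of these pairs at least 1 of the 2 counting intervals held 0. Every member's pair also lost its opposite signs under some alternative. In clusters 0, 3 and 6 the Foxp3GFP ratio of Gimap8 was -0.063 after thinning to 1500 UMIs. In clusters 1 and 2, thinning gave 0.0049 for Gimap5 in Foxp3GFP and 0.26 for Gimap7 in Foxp3CNS1- mice. Equal weight per cell gave -0.015 for Gimap3 in Foxp3GFP mice. For Foxp3CNS1- mice, an equal cluster mix gave 0.076 for Gimap4 and cells with at least 2000 UMIs 0.056 for Gimap8. Over all cells, Gimap8 was the 1 member with opposite signs and both intervals clear of 0, at 0.18 (0.04 to 0.32) and -0.19 (-0.33 to -0.05).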

How the results depend on the processing

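Few UMIs limit the values of Gimap8 (3415 in all) and of cluster 9 (618 Gimap UMIs in 84 cells), and values rest on 1 library per group. Of the 64 member ratios, 512 alternative values were computed, and 41 of them, in 25 ratios, had the other sign; none of these 25 was past the fold. For the log2 ratio of the sum between colonized and germ-free mice in clusters 0, 3 and 6, an equal cluster mix gave 0.032 in Foxp3GFP and 0.11 in Foxp3CNS1- mice, cells with at least 2000 UMIs 0.15 and 0.22, cells with a Foxp3 UMI 0.15 and 0.22, and the sum without Gimap4 0.039 and 0.094. In clusters 1 and 2 thinning gave 0.11 and an equal mix 0.095 in Foxp3GFP mice, and an equal mix gave 0.032 and cells with at least 2000 UMIs 0.0098 in Foxp3CNS1- mice, where the main value was -0.040; the cause was not tested. Between genotypes in clusters 0, 3 and 6, an equal mix gave -0.065 and totals without ribosomal protein, mitochondrial and heat shock genes -0.066 in germ-free mice. In colonized mice those totals gave 0.00067 and cells with a Foxp3 UMI 0.094. At 1.5-fold the 2 counts of 1 member past the fold became 0. Those totals gave a fold of the sum of 1.41 for cluster 3 over 1 and of 1.21 for clusters 0, 3 and 6 over 1 and 2, against 1.94 and 1.45, and cells with at least 2000 UMIs gave 1.86 for the first. Leaving out plasma cell marker cells or shared barcodes moved no member ratio out of its counting interval. No paired analysis was possible because each group has 1 library.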

Other observations

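The 303 cells that the authors' filter removed also carried Gimap transcripts, with 2623 UMIs and a summed level of 3029 CPM (exact Poisson 95% interval 2914 to 3147). Their Gimap4 level was 702 CPM and their Gimap7 level 290 CPM.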
